A study of Mus musculus with 3 samples.

Results

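Box C/D small nucleolar RNA (snoRNA) genes were taken as all genes whose symbol starts with Snord, with no limit on length or counts, which gave 99 of the 55450 genes named in the transcript tables. They were measured in cultured macrophages, phagocytes of the innate immune system, derived from bone marrow of C57BL/6J mice. The 1 group was stimulated with Lipid A, the membrane anchor of bacterial endotoxin and a ligand of TLR4, at 100 ng/ml for 25 min, and RNA of the chromatin fraction was sequenced after ribosomal RNA depletion. The 3 libraries, biological replicates 1, 2 and 3, started from 1000, 250 and 500 ng of RNA. Sex and age were not collected, and all 3 libraries carry the same donor label. The labels do not say that the libraries came from separate animals, so p-values cannot be read as measuring a spread between animals. No unstimulated cells and no other cell fraction were analysed here, so no value below describes a response to Lipid A or an enrichment on chromatin.

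Box C/D snoRNAs are short nuclear RNAs named after the boxes C and D near their ends. Bound by the proteins Fbl, Nop56, Nop58 and Snu13, most of them pair with ribosomal RNA and direct methylation of the ribose at the paired position, and a few help to cut the ribosomal RNA precursor instead. In mammals most are cut out of introns of host genes after splicing, and in macrophages as in other cells many hosts are genes of the translation machinery.

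Letters of both boxes were found in most members. All 99 members were annotated with 1 transcript each, 98 as snoRNA and Snord43 as a miRNA, and they spread over 17 chromosomes. Snord80 carries 2 overlapping gene identifiers. Annotated lengths ran from 64 to 238 nt with a median of 84 nt. The core of box C, searched as TGATGA on the transcript strand, was followed by the core of box D, searched as CTGA, in 75 members (75.8%). That order of letters was found in 0 of the 42 genes named Snora, the box H/ACA class that guides pseudouridylation, and in 5 of the 9 genes named Scarna, RNAs of Cajal bodies of which some carry both kinds of boxes. CTGA alone is short, and it was present in all 99 members and in 54.8% of Snora genes.

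The sequences of the members on which the results turn are shown 5′ to 3′ as annotated in GENCODE M21 on mm10, with the first TGATGA and the last CTGA in capitals. Snord17 (chromosome 2, 144265979 to 144266216, minus strand), Snord15b (chromosome 7, 99479563 to 99479707, minus strand), Snord22 (chromosome 19, 8725866 to 8725991, plus strand) and Snord15a (chromosome 7, 99482785 to 99482932, minus strand) held most of the counts, and Snord22 contains no TGATGA.
Snord17: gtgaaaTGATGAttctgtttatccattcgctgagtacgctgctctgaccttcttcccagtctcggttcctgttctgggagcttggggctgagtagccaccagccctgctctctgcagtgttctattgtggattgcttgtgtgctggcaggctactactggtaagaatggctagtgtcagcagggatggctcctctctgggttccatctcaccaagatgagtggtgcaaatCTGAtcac
Snord15b: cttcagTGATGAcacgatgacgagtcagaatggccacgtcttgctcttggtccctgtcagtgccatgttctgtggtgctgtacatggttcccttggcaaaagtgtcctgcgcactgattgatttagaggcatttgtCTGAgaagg
Snord15a: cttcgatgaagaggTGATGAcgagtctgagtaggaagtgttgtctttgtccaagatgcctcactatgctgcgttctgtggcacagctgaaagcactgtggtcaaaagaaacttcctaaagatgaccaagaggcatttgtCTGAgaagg
Snord22: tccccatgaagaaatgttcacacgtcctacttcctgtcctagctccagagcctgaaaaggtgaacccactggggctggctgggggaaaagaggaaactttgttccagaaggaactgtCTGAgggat

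A second set shows shorter members. Snord21 (chromosome 5, 107904555 to 107904648, plus strand) had the highest counts among the members of up to 111 nt. Snord83b (chromosome 15, 80078498 to 80078591, minus strand) took a lower share of the counts in libraries that started from more RNA. Snord116l1 (chromosome 7, 59894620 to 59894713, minus strand) stands for a family with no counts.
Snord21: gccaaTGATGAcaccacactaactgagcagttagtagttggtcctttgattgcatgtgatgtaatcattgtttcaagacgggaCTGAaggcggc
Snord83b: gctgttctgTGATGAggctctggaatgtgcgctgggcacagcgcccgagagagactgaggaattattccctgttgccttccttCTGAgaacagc
Snord116l1: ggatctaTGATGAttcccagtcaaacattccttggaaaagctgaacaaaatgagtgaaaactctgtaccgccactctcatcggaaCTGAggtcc

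The libraries were deposited in 2 kinds of quantification, a gene table with the column names of RSEM and a transcript table with those of kallisto, here called the RSEM-type and the kallisto-type table. The RSEM-type tables summed to 13525994, 19230763 and 19207049 expected counts in replicates 1, 2 and 3, and the kallisto-type tables to 20878296, 33374245 and 32145235 estimated counts. A value of 0 in a kallisto-type table allows up to 3 counts, or 0.144, 0.0899 and 0.0933 CPM (counts scaled to a library total of 1000000), counting error only. Genes of the ribosomal DNA locus took 8.46%, 27.1% and 23.1% of the expected counts. Replicate 1 stood apart, with a chi-square per gene of 192 and 133 against replicates 2 and 3, which differed from each other by 21.4. Chi-square was averaged over genes that include the ribosomal DNA locus, whose part in it was not tested. All 7 macrophage marker genes had a mean of at least 10 expected counts. Of 12 markers of neutrophils, T, B, erythroid and nerve cells, 7 were at 0 in every RSEM-type table and 1, Ngp of neutrophil granules, reached 10 counts on average. By kallisto-type counts 3 were at 0 and 2 reached 10 counts, Ngp and the T cell marker Thy1, which had 147, 275 and 315 counts there and 0 in the RSEM-type tables. The part of other cells in the results was not tested.

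In the RSEM-type tables only 5 of the 99 members had any counts, and these were the 5 longest. The other 94 members, of up to 111 nt, had an effective length of 0, the number of positions at which a fragment of the library could start, and were listed at 0 in all 3 libraries. Over all genes the longest with an effective length of 0 was 122, 124 and 124 nt long in replicates 1, 2 and 3, and the shortest gene above 0 was 123, 125 and 125 nt. The labels give a library size range of 250 to 400, without a unit, and every member is shorter than its lower end. A member listed at 0 there is therefore not shown to be absent.

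The kallisto-type tables gave counts to many of the same members. There 61 of 99 members (61.6%) had a mean of at least 1 count, 42 at least 10 and 14 at least 100, and 33 were at 0 in every library. The kallisto-type effective lengths of the members ran from 13.96 to 82.4 nt and none was 0. Of the members with an effective length of 0 in the RSEM-type tables, 37 had a mean of at least 10 counts in the kallisto-type tables. For Snora genes, whose median length is 132.5 nt, the share with a mean of at least 1 count was 61.9% in the RSEM-type and 85.7% in the kallisto-type tables, and over all genes it was 37.3% and 55.3%.

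**Figure D1:**
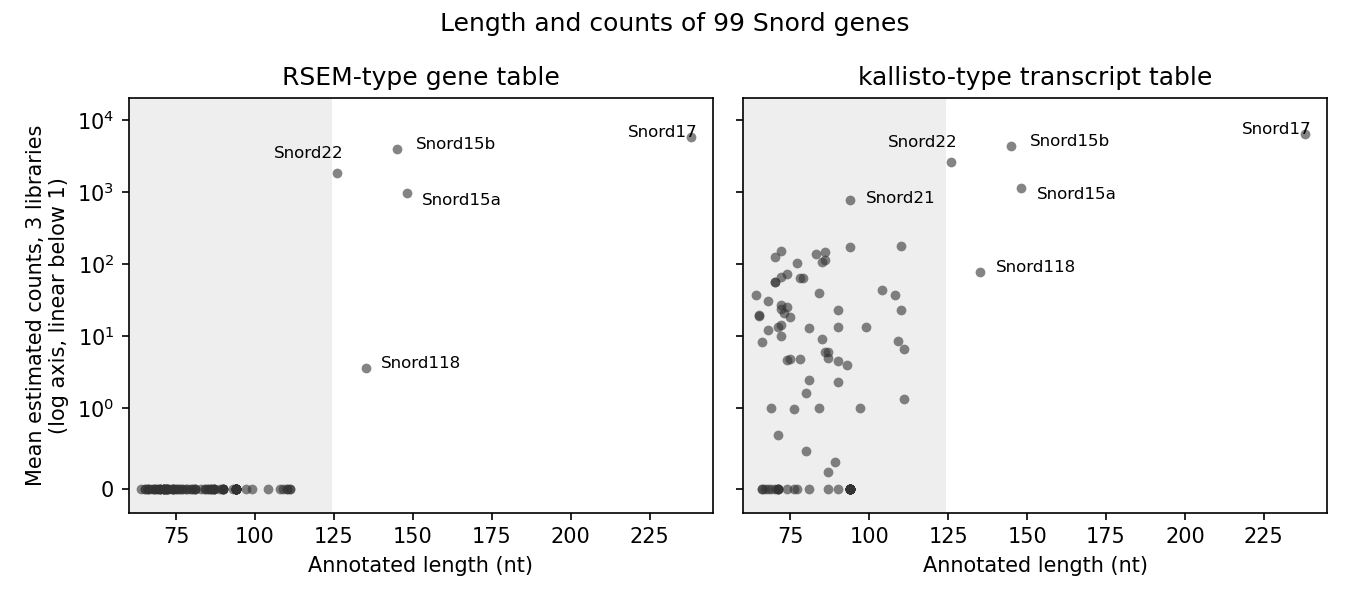
Mean counts over 3 libraries (vertical, log axis that is linear below 1) against annotated length in nt (horizontal) for the 99 Snord genes, in the RSEM-type gene table (left) and the kallisto-type transcript table (right). The shaded lengths, up to 124 nt, hold no counts on the left, while 56 members there reach a mean of at least 1 on the right.

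Among the 5 members with counts in both kinds of table, Snord17, Snord15b, Snord22 and Snord15a were abundant and Snord118 was rare. Snord17, which lies in an intron of the sorting nexin gene Snx5, had 5587, 6716 and 4727 expected counts in replicates 1, 2 and 3. Snord15b, a guide of large-subunit ribosomal RNA methylation, had 5036, 3325 and 3287 counts. By CPM Snord15b stood at 372 in replicate 1 against 173 and 171 in the other libraries.

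Snord22, known as U22 and required for small-subunit ribosomal RNA processing in frog oocytes, had 1011, 2597 and 1928 expected counts. Snord15a, the second U15 copy in the ribosomal protein gene Rps3, had 870, 1147 and 840. Snord118, known as U8, which is needed for large-subunit ribosomal RNA maturation in frog oocytes, had 4, 5 and 2. For Snord22 replicate 1 was the lowest library by CPM (74.7 against 135 and 100.4), while for Snord17 it was the highest (413 against 349 and 246).

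The order of these members depended on how length was handled. By mean deposited TPM (counts divided by effective length and scaled to a sum of 1000000 per table) Snord22 came first at 71970 ± 28128 (SD, n = 3), then Snord15b at 44396 ± 11114, Snord15a at 9414 ± 1491, Snord17 at 6075 ± 1020 and Snord118 at 73.5 ± 28.8. In replicate 1 Snord15b (57194 TPM) stood above Snord22 (41526 TPM), so the order of these members was not the same in all libraries. Snord22 had an effective length of 1.38, 1.10 and 1.09 nt, so each of its counts weighed more than a count of Snord17, whose effective length was 54.7, 38.3 and 39.7 nt. Scaled by annotated length instead, Snord15b had 1647 ± 797 CPM per kb, Snord17 1412 ± 354 and Snord22 820 ± 240 (SD, n = 3). Snord15b and Snord17 did not differ beyond the spread between libraries on that scale, and Snord22 stood below both.

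**Figure D2:**
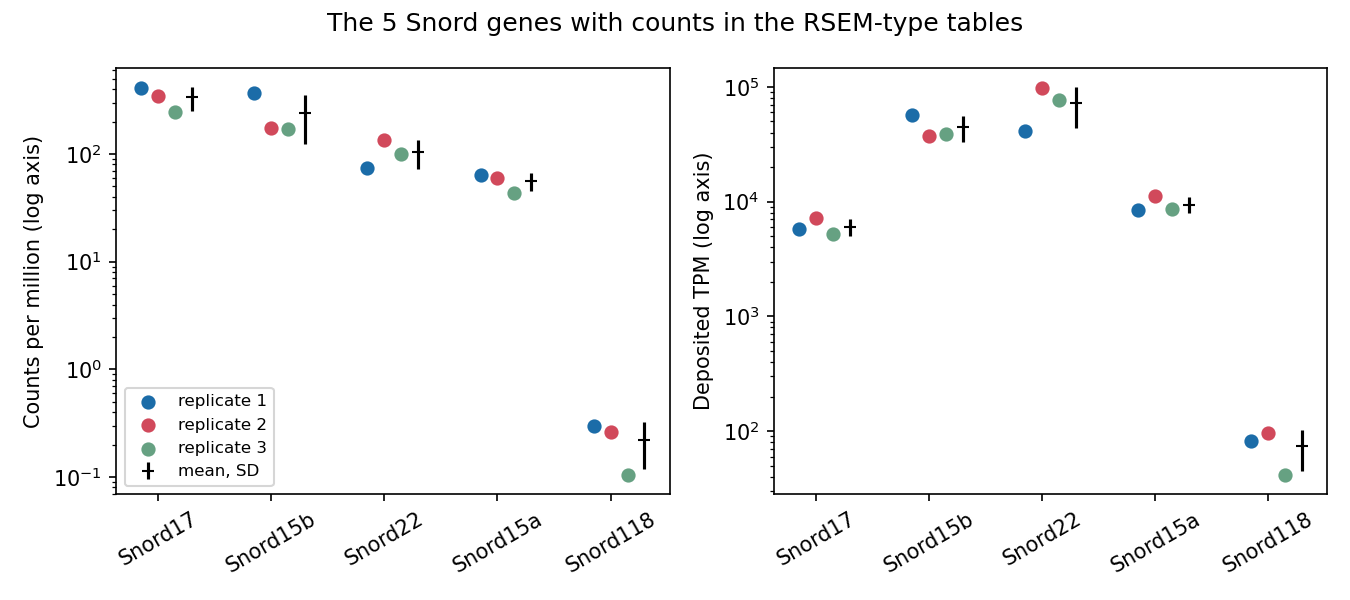
Expected counts as CPM (left) and deposited TPM (right), both on log axes, for the 5 Snord genes with counts in the RSEM-type tables; coloured points are the 3 libraries, and black bars the mean and SD. By the mean Snord22 stands below Snord15b in counts and above it in TPM, but below it in replicate 1 on both scales, and Snord118 is lowest on both.

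The members together made up 11.3%, 15.3% and 13.0% of all TPM in the RSEM-type tables, a mean of 13.2 ± 1.98% (SD, n = 3). The same members took 0.0925%, 0.0717% and 0.0561% of the expected counts. In the kallisto-type tables they took 2.93%, 1.79% and 1.80% of TPM. Replicate 1 was the lowest library by deposited TPM and the highest on both other scales.

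Counts of the same member also differed between the tables. The kallisto-type mean was 1.12 times the RSEM-type mean for Snord17 and Snord15b, 1.20 times for Snord15a and 1.40 times for Snord22. For Snord118 it was 21.4 times, with 84, 79 and 72 kallisto-type counts. A share of 32.4% of the 31-base words of Snord118 also occurs in the transcript of Gm24208, which was at 0 in both kinds of table.

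In the kallisto-type tables, where most members can be compared, a few dominated. Snord17, Snord15b, Snord22 and Snord15a held 82.7% of all counts on members, and the 14 members with a mean of at least 100 counts held 94.2%. By kallisto-type TPM the order was Snord15b (6464 ± 4167), Snord22 (4301 ± 318), Snord17 (2877 ± 928), Snord21 (1839 ± 976) and Snord15a (1483 ± 446; SD, n = 3 for each), and the libraries of neighbours in this order overlapped except for Snord22 and Snord17. Apart from the members in both tables, those named in this and the next paragraphs by their kallisto-type level were chosen after their values were seen.

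Snord21, known as U21, a guide of large-subunit ribosomal RNA methylation in the ribosomal protein gene Rpl5, had 911, 645 and 756 kallisto-type counts. This was the highest level among members without RSEM-type counts. The next was Snord89, in the noncoding gene Gm15832, with 178, 173 and 186 counts. A gap separated Snord15a from it, since its TPM was 389 ± 137 (SD, n = 3).

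**Figure D3:**
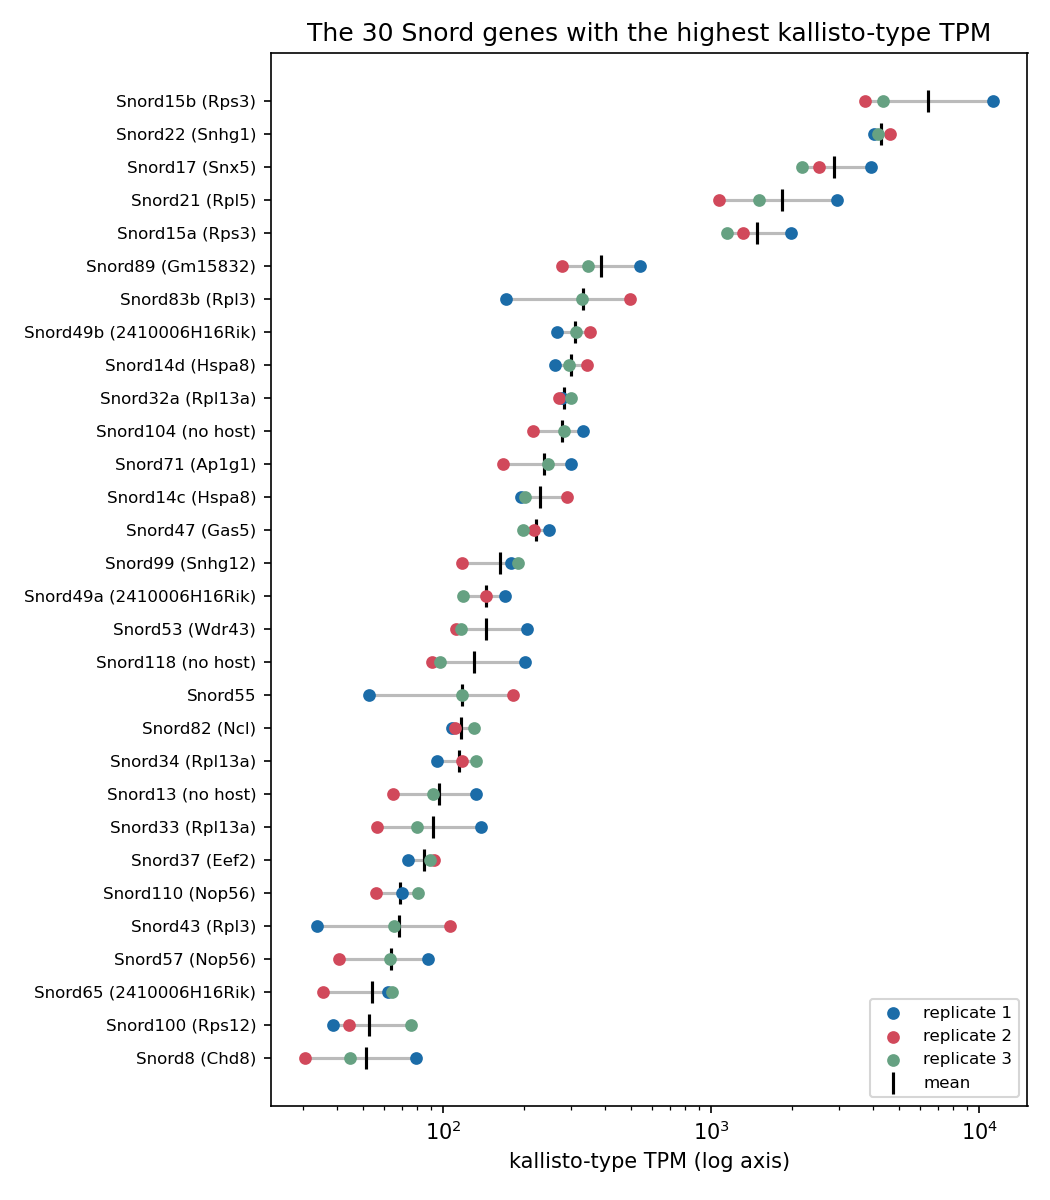
kallisto-type TPM (horizontal, log axis) of the 30 Snord genes with the highest mean, with the host gene in brackets (not given for Snord55); coloured points are the 3 libraries, the black mark is the mean and the grey line spans the libraries. The 5 highest members stand at mean values of 1483 to 6464, and the sixth, Snord89, at 389.

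Snord13, Snord118 and the Snord14 genes had fewer kallisto-type counts than Snord22. Snord13, known as U13, which pairs with small-subunit ribosomal RNA in human cells, had 42, 39 and 48 kallisto-type counts. Snord118 was of the same order, as given above. The Snord14 genes, copies of U14 that is needed for small-subunit processing in yeast, together had 138, 414 and 250 counts.

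Within the Snord14 group the copies differed. Snord14d had 78.7, 218 and 148 counts and Snord14c 59.1, 183 and 102, both in the chaperone gene Hspa8. These copies are 97.7% identical and share 41.1% of their 31-base words, so the split between them is uncertain. Snord14e had 0, 13.7 and 0 counts, and Snord14a, in the ribosomal protein gene Rps13, had 0 in every library. No gene of the tables was named Snord3, the U3 family, so U3 was not analysed here.

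The members of imprinted clusters had no counts. The 17 Snord116l genes are neuronal snoRNAs of the Prader-Willi region carried by the long noncoding RNA Snhg14. They were at 0 in every library of both kinds of table. In the RSEM-type tables their effective length was 0, so the 0 there does not show absence. Their host Snhg14 had 834, 679 and 942 kallisto-type counts. The 17 genes hold 4 distinct sequences, and their words also occur in 53 further genes, all of which were at 0 as well, so no reads had been assigned to a copy with another name. Snord64 and Snord107, of the same chromosome region, were at 0 too. Both lie in exons of their host Gm38393 on the same strand, and all their words also occur in its transcripts. The Gm38393 transcript around Snord64 had 41.9, 35.2 and 14.2 kallisto-type counts in replicates 1, 2 and 3. The 0 of Snord64 therefore does not show that the RNA was absent. The Gm38393 transcripts around Snord107 were at 0 in every library. No gene was named Snord113, Snord114 or Snord115.

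Hosts were assigned from the annotation as the gene that holds a member on the same strand. This gave 96 members in 54 hosts, 19 of them with more than 1 member, and left Snord13, Snord118 and Snord104 without a host. A group of 22 members lay in 14 ribosomal protein genes. Of these 22, 15 had a mean of at least 10 kallisto-type counts and 3 were at 0. Of the 35 members in other protein-coding hosts 13 reached 10 counts, and of the 22 in noncoding hosts other than Snhg14 11 did.

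By kallisto-type TPM some members stood above their host. This scale divides by effective length, which was 13.96 to 82.4 nt for members with annotated lengths of 64 to 238 nt. A count on a short member therefore weighed more than a count on a longer host. Snord35a, for example, had 51.2 TPM with a mean of 23 counts, and its host Rpl13a 22.4 TPM with 313 counts. The kallisto-type TPM of a member was higher than that of its host for 42 of 96 members, and for 17 of the 22 in ribosomal protein genes. Snord15b stood 934-fold and Snord15a 214-fold above Rps3, which itself had 6.92 ± 0.36 TPM (SD, n = 3). For Snord15b the ratio was 1598 in replicate 1, 520 in replicate 2 and 673 in replicate 3, 593 without replicate 1, and 6696 by deposited TPM. Snord22 stood 177-fold above the noncoding host Snhg1, and Snord17 9.37-fold above Snx5, whose TPM of 307 was the highest of all hosts. Across members the Spearman correlation between member and host TPM was 0.28 (n = 96 members that share hosts, libraries and depth), and 0.41 over the 38 without Snord116l and outside exons, given as a description.

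Members of 1 host did not share a level. Among 14 pairs of members in 7 hosts, each member with a mean of at least 10 counts, 12 pairs had the same member higher in all 3 libraries, and 9 differed by over 2-fold. The pairs were not independent, since members of Rpl13a and 2410006H16Rik each entered several of them. The 12 pairs include Snord14d with Snord14c (97.7% identical, 1.32-fold) and Snord50a with Snord50b (98.6% identical, 1.36-fold). The split of reads within both of these pairs is uncertain. Some pairs, such as Snord15b and Snord15a, set a member in a host exon, whose reads can also fit the host transcript, against a member outside exons. Snord15b stood 3.95-fold above Snord15a by kallisto-type TPM, with log2 ratios of 2.50, 1.52 and 1.93 in replicates 1, 2 and 3, although the copies are 64.2% identical. Snord83b stood 4.91-fold above Snord43 in the ribosomal protein gene Rpl3, with log2 ratios of 2.33, 2.23 and 2.33. In the snoRNA host 2410006H16Rik, Snord49b stood 5.89-fold above Snord65.

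The 4 members of the ribosomal protein gene Rpl13a, some of which are known in rodent cells for a part in lipid-induced stress, gave a similar picture. Snord32a had 84, 173 and 150 kallisto-type counts, Snord34 29, 74 and 65, Snord33 42.2, 36.2 and 39.9, and Snord35a 20, 24 and 25. Snord32a was above Snord35a by 5.63-fold. The order of Snord34 and Snord33 was not the same in all libraries, since Snord33 was higher in replicate 1 only. Snord110 and Snord57, in the host Nop56, which encodes a box C/D protein, also changed places between libraries.

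Gas5, a noncoding host known for its many snoRNAs, carried 4 of the member genes. Snord47 had 76.0, 137 and 100.4 kallisto-type counts and Snord78 had 0 in every library. Of the 2 Snord80 genes 1 had 4.23, 2.08 and 1.17 counts and the other 0, and their shared sequence makes that split uncertain. The Gas5 transcripts with an exon that overlaps Snord78 had 1218, 1875 and 1401 counts.

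Exons of another gene on the same strand overlapped 41 of the 99 members, 28 of them exons of transcripts annotated as retained introns. Members in such exons had a median of 2.50 kallisto-type counts, and 14 of 41 were at 0. Members outside them, other than Snord116l, had a median of 23 counts, and 2 of 41 were at 0, Snord4a and Snord123. Snord4a and Snord42a, counted here as outside, lie opposite an exon of Tlcd1 on the other strand. Snord15b, Snord21 and Snord22 belonged to the members in exons and were among the highest all the same.

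The overlap bears on how counts were divided. All 31-base words of 53 members, Snord15b, Snord21 and Snord22 among them, also occur in a transcript of another gene, and 37 members shared none. The Rps3 transcript around Snord15b had 193, 456 and 301 counts, against 5438, 3823 and 3752 on Snord15b itself. The Rpl5 transcript around Snord21 had 76.3, 162 and 73.2 counts, fewer than Snord21. For Snord14a the reverse was seen, with 188, 364 and 223 counts on the Rps13 transcripts whose exons overlap it and 0 on the snoRNA. Without a stated strand setting the counts of Snord4a and Snord42a (0 for Snord4a and a mean of 19.3 for Snord42a) are uncertain too. Reads that fit both cannot be told apart in these tables, so a 0 for a member in an exon does not show that the RNA was absent.

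**Figure D4:**
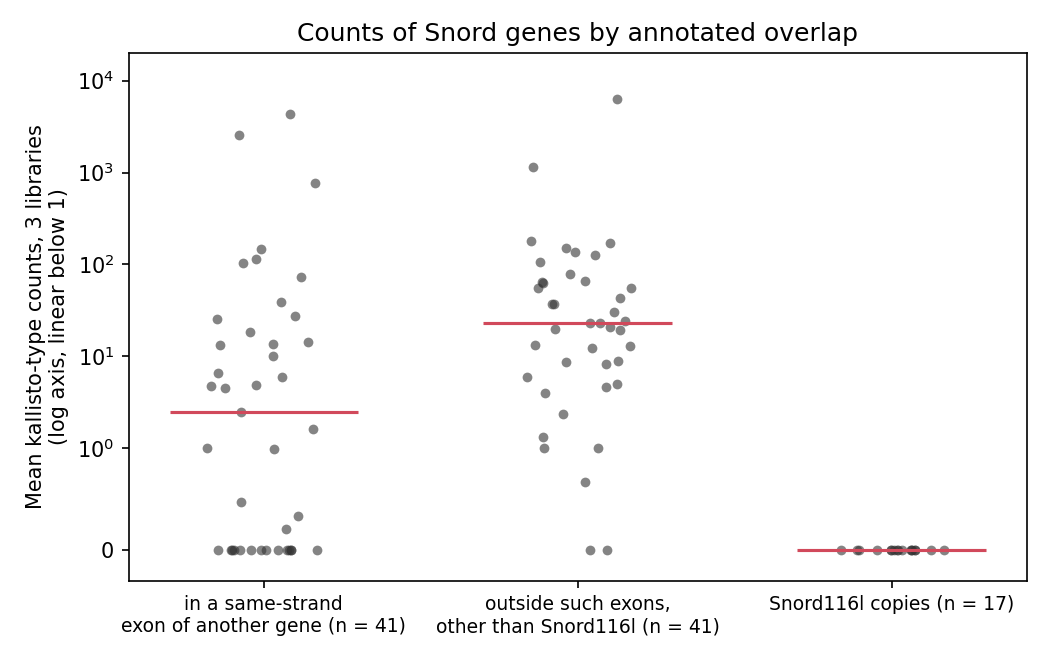
Mean kallisto-type counts over 3 libraries (vertical, log axis that is linear below 1) of the 99 Snord genes, divided into 41 that overlap a same-strand exon of another gene, 41 that do not and 17 Snord116l copies; each point is a gene and the red line the median. The medians are 2.50, 23 and 0 counts.

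The libraries differed in the RNA amount, the only difference that the labels record. Of the 42 members with a mean of at least 10 kallisto-type counts, 22 had their highest CPM in replicate 1, 15 in replicate 2 and 5 in replicate 3. The highest library was a median of 1.66-fold above the lowest, from 1.12-fold for Snord50b to 4.61-fold for Snord55. The change per doubling of RNA was tested for all genes with edgeR's quasi-likelihood test. With 3 libraries, each at its own amount, 1 residual degree of freedom was left. The p-values rest on the departure from a straight line in log2 amount and on dispersions estimated with information from all genes. The amount and whatever else differed between libraries, such as the share of the ribosomal DNA locus, lowest in replicate 1, cannot be told apart.

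In the RSEM-type counts 4.35% of all 15071 genes tested were called, 2.96% as higher and 1.39% as lower with more RNA. Of the 4 members tested 1 was called. Snord22 fell by 0.55 on the log2 scale per doubling of RNA (SE 0.13, edgeR adjusted p = 0.0231). Leaving out each library in turn gave values of -0.62 to -0.48, with no test since 2 libraries leave no residual degree of freedom. In the kallisto-type counts Snord22 had a change of -0.46 and the call was lost (adjusted p = 0.0811). Its host Snhg1 had a change of -0.21 (adjusted p = 0.411), and the difference between Snord22 and Snhg1 was not tested.

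The other 3 members tested were not called. Snord15b had a change of 0.43 (SE 0.14, edgeR adjusted p = 0.0784), and it was -0.07 without replicate 1 and 0.92 without replicate 2. Snord15a had -0.07 (adjusted p = 0.812), with -0.50 and 0.36 without these replicates. Snord17 had -0.00 (adjusted p = 0.992), with -0.56 and 0.55, so the values of all 3 members turned on which library was left out. The host of Snord15a and Snord15b, Rps3, had a change of -0.48 (adjusted p = 0.0873).

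In the kallisto-type counts 43 members could be tested and 2 were called, both lower with more RNA, against 2% of all 24300 genes tested in either direction, 1.4% as higher and 0.601% as lower. Snord83b had 53, 299 and 165 counts in replicates 1, 2 and 3, and 2.54, 8.96 and 5.13 CPM. It fell by 1.07 on the log2 scale per doubling (SE 0.18, edgeR adjusted p = 0.00919). Snord55 had 16, 118 and 58 counts and fell by 1.24 (SE 0.24, edgeR adjusted p = 0.0184). Both members were lowest in replicate 1, highest in replicate 2 and between them in replicate 3.

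Rpl3, the ribosomal protein gene that is the host of Snord83b, fell by 0.73 (SE 0.13, edgeR adjusted p = 0.0123). Snord43, the other member in Rpl3, had a change of -1.08 (SE 0.28, adjusted p = 0.0659). At an unadjusted p under 0.05 there were 9 of the 43 members, 7 lower and 2 higher, against 18.3% of all genes tested, 9.44% lower and 8.82% higher. The higher ones were Snord15b (0.42, adjusted p = 0.124) and Snord21 (0.41, adjusted p = 0.128).

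The count of called members was small under the other settings too. In the RSEM-type counts Snord22 alone was called with RLE factors (4.62% of all genes called) and without the ribosomal DNA locus genes (5.23%). It was also the only member called with DESeq2 (3.61% of the 9825 genes given an adjusted p). Snord22 and Snord15b were called with no count filter (4.85% of all genes) and with the amount in ng (19.6%). In the kallisto-type counts Snord83b and Snord55 were called with RLE factors (2.71% of all genes) and without the ribosomal DNA locus genes (2.03%). DESeq2 gave no adjusted p for either. It called 0 members, against 4.23% of the 10409 genes given an adjusted p, of which 5 were members. Of 66 members with an unadjusted DESeq2 p, 9 were under 0.05.

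Direction was not shared with the host in general. Of 40 members with a tested host in the kallisto-type counts, 21 had a change of the same sign as the host, with signs counted whatever the size of the change. The median change of the 43 members was -0.06 against -0.01 over all genes tested. Snord14c had a change of -0.66 (adjusted p = 0.0877) and its host Hspa8 one of 0.40 (adjusted p = 0.115). Of 52 hosts tested there 1 was called, Rpl3, against 2% of all genes. At an unadjusted edgeR p under 0.05 there were 21 of these 52 hosts, against 18.3% of all genes. Their median change was -0.19, against -0.01 over all genes tested. In the RSEM-type counts 4 of 50 hosts were called, against 4.35% of all genes. Of these Rpl3, Nop53 and 1110038B12Rik were lower and Gm15832 higher. An unadjusted edgeR p under 0.05 was found for 20 of the 50 hosts, against 21.4% of all genes, and the median change of hosts was -0.24.

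**Figure D5:**
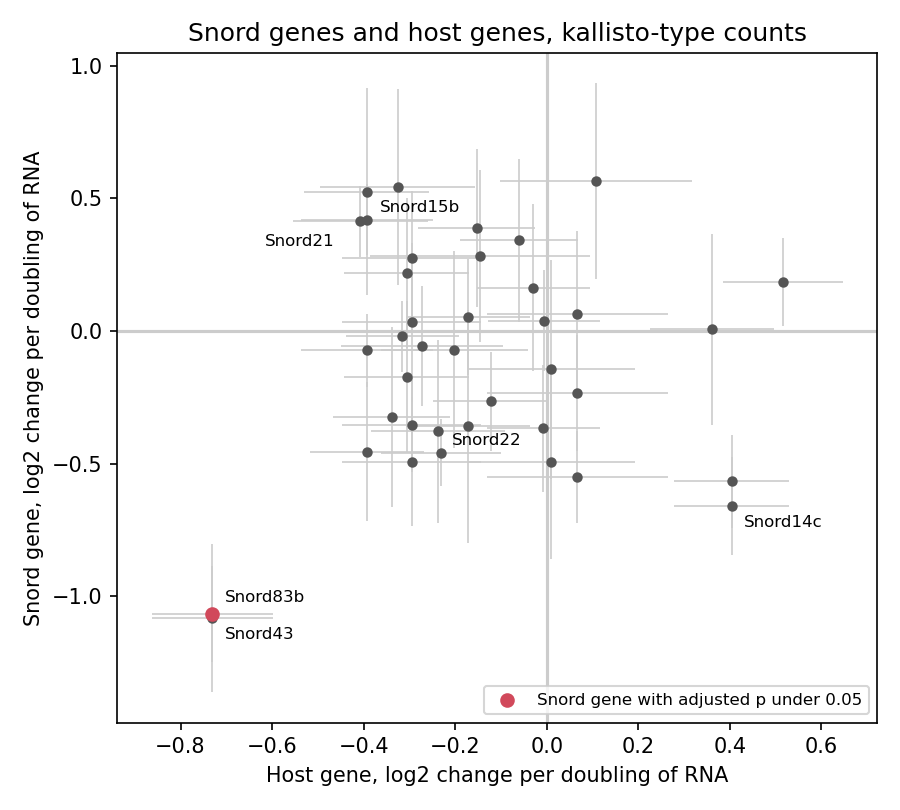
log2 change per doubling of RNA in the kallisto-type counts for 39 Snord genes (vertical) against their host genes (horizontal), with standard errors as lines and Snord55 not plotted; the red point is a Snord gene with an adjusted p under 0.05. Snord83b, the red point, and Snord43 lie lowest, with their host at -0.73.

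The protein partners of box C/D snoRNAs were measured as well. Of 31 genes found from a list of core, assembly, maturation and U3-associated proteins, 30 had a mean of at least 10 expected counts, with a median deposited TPM of 3.53. The highest were the exonucleases Xrn2 (46.2 ± 8.23 TPM, SD, n = 3) and Xrn1 (40.0 ± 8.80), the U3-associated Wdr43 (29.9 ± 1.16), itself a host of Snord53 and Snord92, and nucleolin, Ncl (25.8 ± 1.23), the host of Snord82. The lowest were Imp3 (0.32 ± 0.15) and Dbr1 (0.70 ± 0.12), the enzyme that opens intron lariats. The core proteins stood at 21.4 ± 3.52 TPM for Nop56, 11.1 ± 2.53 for Nop58, 7.78 ± 2.66 for the methyltransferase Fbl and 1.69 ± 0.10 for Snu13.

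With RNA amount 1 of the 30 listed genes tested in the RSEM-type counts was called, against 4.35% of all genes. Nol6, a protein of the small-subunit precursor, had 105, 359 and 275 expected counts and fell by 0.75 on the log2 scale per doubling (SE 0.18, edgeR adjusted p = 0.0245). In the kallisto-type counts 0 of 30 were called by edgeR, with 9 at an unadjusted p under 0.05 against 18.3% of all genes, and Nol6 had a change of -0.75 (adjusted p = 0.0560). Fbl had a change of -0.59 (adjusted p = 0.0886) in the RSEM-type counts.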

How the data were processed

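The data were 3 libraries of chromatin-fraction RNA that form 1 group, numbered 1 to 3 by the labels. The authors deposited, per library, a gene table with expected counts, effective lengths and TPM under the column names of RSEM, and a transcript table with estimated counts and TPM under those of kallisto, per the file headers. Assembly mm10 and annotation M21 come from the deposited readme files. No aligner, tool version or strand setting was given in the sources used here. The TPM deposited by the authors sum over a whole table, spike-ins included.

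The members, the gene lists and the tests were chosen with earlier results of these data known. Transcript counts were summed per gene, and hosts, exons and sequences were read from GENCODE M21. Words of 31 bases of each member were searched on both strands of all annotated transcripts. Change per doubling of RNA was tested by edgeR 4.0.16 in R 4.3.3 (quasi-likelihood, TMM, filterByExpr, Benjamini-Hochberg over all genes tested, threshold 0.05) on expected or estimated counts rounded to whole numbers, against log2 of the labelled amount, after a test on simulated data. Standard errors were derived from the test. Genes of any length entered the fit. A gene was detected at a mean of at least 1 count.

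Alternatives were RLE factors, DESeq2 1.42.0, no count filter, the amount in ng, leaving out the ribosomal DNA locus genes, the kallisto-type counts and leaving out each library. The kallisto-type fits with RLE, DESeq2 or without the ribosomal DNA locus were added after seeing the data. The named genes were the 10 highest members by deposited TPM or counts, all Snord3, Snord13, Snord14, Snord22 and Snord118 genes, the imprinted families as groups, members of Gas5, Snhg1 and Rpl13a, members called with RNA amount, the largest differences between tables, the hosts of these, and the 4 highest, 2 lowest and called genes of the box C/D protein list. In that list 2 names, Nhp2l1 and Nopchap1, matched no gene. Other steps used Python 3.11.15, numpy 2.4.6 and pandas 2.3.3. The host and sequence of Snord55 are not reported here.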

Additional observations from a re-analysis of the deposited data

How the results depend on the processing

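The number of members with counts was 5 in the RSEM-type tables, also with each library left out (5 to 5), against 61 in the kallisto-type table and 38 of these outside same-strand exons of other genes. The share of the members, 13.2% of deposited TPM (12.2% to 14.1% with each library left out), was 0.0734% of expected counts and 2.17% of kallisto-type TPM. With RNA amount 1 member was called in the RSEM-type counts, also with RLE factors, with DESeq2 and without the ribosomal DNA locus genes. The count was 2 with no count filter and 2 with the amount in ng, where Snord15b joined Snord22, and 2 in the kallisto-type counts, with TMM or RLE factors or without the ribosomal DNA locus genes (Snord83b and Snord55). It was 0 with DESeq2 on kallisto-type counts, where 5 members had an adjusted p, Snord83b and Snord55 not among them. Of 66 members with an unadjusted DESeq2 p there, 9 were under 0.05 (6.77% of all genes with a p). The amount in ng called 19.6% of all genes, against 4.35% on the log2 scale. The change of Snord17, -0.00, was 0.0084 with RLE factors and 0.00051 with DESeq2, and ran from -0.56 to 0.55 without each library in turn. The adjusted p of Snord22 ran from 0.00842 to 0.0811 over the alternatives on the log2 scale, and that of Snord15b from 0.0334 to 0.159. Leaving out replicate 3, whose amount lies midway on the log2 scale, nearly repeats the full fit by design. Without each library in turn the change ran from -1.30 to -0.86 for Snord83b and from -1.48 to -1.01 for Snord55. The cause of these differences was not tested. No paired analysis was possible because all libraries belong to 1 group. Depth limits members under about 10 counts, and a 0 allows up to 3 counts in the kallisto-type table only.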
